A study of Taeniopygia guttata with 21 samples.

Results

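Skin of the dorsal saddle was compared with skin of the dorsal posterior back in zebra finch (Taeniopygia guttata) embryos of stage HH28, before feathers grow out. The comparison took 6 of the 21 libraries of the series, 3 of the saddle and 3 of the posterior back, chosen by the location in their labels and by the replicate numbers 3, 8 and 11 that every location carries. The series was designed to find molecules restricted to presumptive colour domains. Neighbouring locations serve as references: 3 dorsal anterior libraries for the next boundary of the back, and 3 ventral-most and 3 ventral posterior libraries for the belly. All embryos were wild type, untreated and bred from birds of local suppliers. The labels do not say what a number stands for, whether skin was pooled, what sex the embryos had, or where the borders of the saddle were set. Values are always given in the order of the numbers 3, 8 and 11.

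The skin of the back holds an epidermis over a dermis, with melanoblasts, the pigment cell precursors that come from the neural crest, migrating into it. Position along the body axis is recorded by HOX genes, homeobox transcription factors in clusters whose members of higher paralog number are switched on later and further towards the tail. T-box factors, and homeobox factors outside the HOX clusters, mark mesoderm regions from which dermis and muscle arise. Melanocytes make pigment in melanosomes with enzymes such as tyrosinase (TYR).

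The saddle libraries held 15.7, 20.4 and 20.0 M reads (mega) and the posterior libraries 21.6, 23.0 and 16.0 M, within the 12.9 to 23.0 M of all libraries. The deposited values are normalised read counts, and every level below is in that unit, which allows a gene to be compared between libraries but not with another gene. Epidermal and dermal marker genes, which define skin, had reads in all 6 libraries, and none of either list was at 0 throughout a location. Skeletal muscle markers had reads as well. The summed level of 26 genes of muscle and its precursors was 529, 2095 and 456 in the saddle, against 4192, 5823 and 5671 in the posterior back. The sum of 6 erythroid (red cell) genes was 12190, 4540.3 and 6206 in the saddle, against 13855, 49411 and 7442 in the posterior back, so posterior library 8 stood apart. In whole tissue, fewer cells of a type and less RNA per cell cannot be told apart.

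In the saddle, 54 genes were higher and 43 were lower than in the posterior back, by limma with a Benjamini-Hochberg adjusted p below 0.05, which is what "called" means below. These 97 genes were 0.693% of the 14005 genes tested, 0.386% higher and 0.307% lower. A change of 2-fold or more was seen in 40 of the higher and 29 of the lower genes, and 65 of the 97 carried a symbol. The median log2 fold change, saddle over posterior, was 1.40 among the higher genes, -1.23 among the lower ones and 0.01 among all genes tested. All 97 had the same sign within each of the 3 numbers, which is not independent of calls from a fit that includes the number. In 82 of the 97 the 3 saddle libraries did not overlap the 3 posterior ones, as was also the case for 13.1% of all genes tested. The 97 were called on these same libraries, so the 82 are no separate support for the calls.

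The calls rest on the design in several ways. Without number 8 at all locations, limma called 0 genes. The 97 then kept their sign, all had an unadjusted p below 0.05, as 803 genes did, and the smallest adjusted p among them was 0.126. Leaving out a single library gave 59, 21 and 23 calls without saddle library 3, 8 or 11, and 22, 8 and 31 without posterior library 3, 8 or 11. In these 6 fits 7 of the 97 genes stayed called each time, and of the named genes these were TBX18, TP53I11, SLC24A5, HOXA11, HOXD11 and ERG. Without the numbers as a block the count was 22 (0.157%), all of them among the 97. With edgeR it was 67 (0.478%), and with DESeq2 383 (2.73%).

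**Figure D1:**
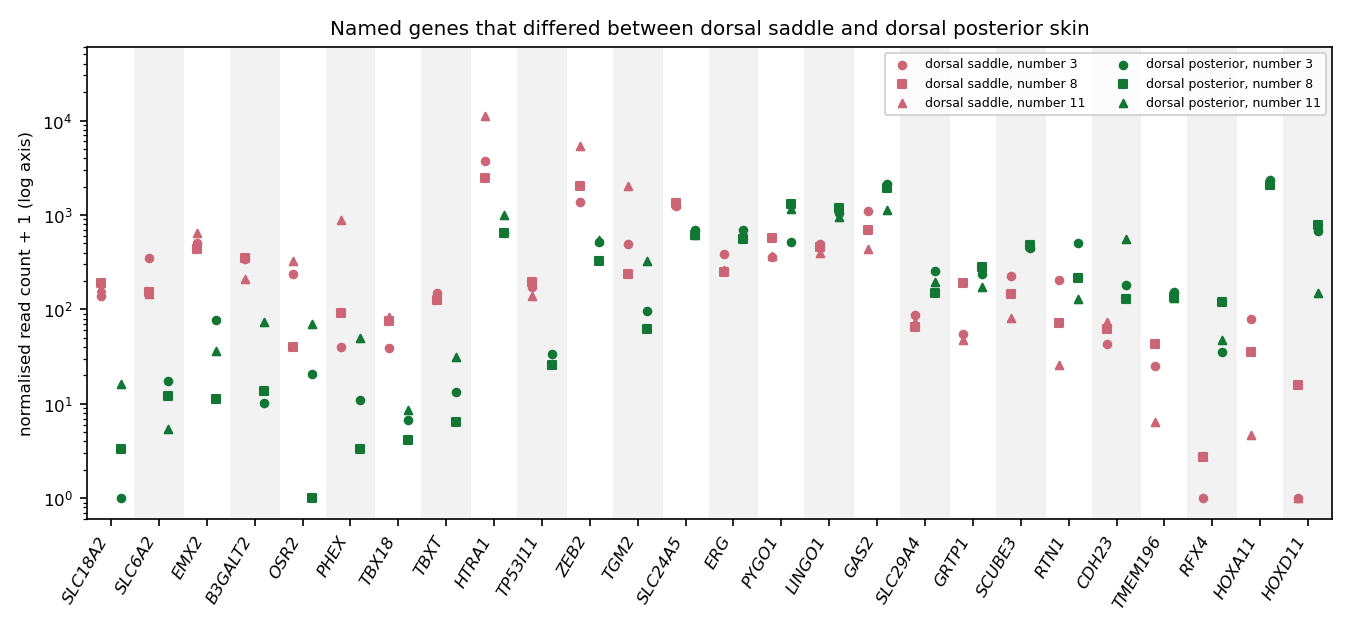
Level of 26 named genes that were called, as normalised read count + 1 on a log axis, in each saddle (left, pink) and posterior (right, green) library, with a symbol for each number. The genes run from SLC18A2, with a log2 fold change of 5.44, to HOXD11, with -7.41.

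Several of the higher named genes were transcription factors. TBX18, a T-box factor of the somites and of several mesenchymes, had 38.3, 74.2 and 81.7 in the saddle, against 5.81, 3.14 and 7.66 in the posterior back. Every saddle library lay above every posterior one (11.7-fold by the means, log2 fold change 3.32, SE 0.38, adjusted p = 0.00109). It lies on chromosome 3 at 79589224 to 79608838 on the plus strand.

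EMX2, a homeobox factor of the forebrain, the urogenital system and the shoulder region, had 509, 440.0 and 636 in the saddle, against 76.3, 10.2 and 35 in the posterior back. The groups were far apart, although the posterior libraries varied widely among themselves (log2 fold change 4.06, SE 0.62, adjusted p = 0.00964). Without posterior library 8 the adjusted p of EMX2 was 0.0561. Both EMX2 and TBX18 belong to a list of 15 somite and dorsal dermis regulators, of which 2 were higher and 0 lower. Over all genes tested, 0.386% were called higher and 0.307% lower. The other members of the list were not called, 10 of the 15 had a negative fold change, and the median was -0.73. One of these was TWIST1, a factor of dermal mesenchyme (log2 fold change -0.95, adjusted p = 0.0615).

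TBXT (brachyury), the T-box factor of nascent mesoderm and notochord, had 148, 125 and 139 in the saddle, against 12.4, 5.49 and 30.7 in the posterior back. Its saddle libraries agreed closely and all lay above the posterior ones (log2 fold change 3.30, SE 0.57, adjusted p = 0.0141). It stayed called in 1 of the 6 fits that leave out a library. It was the 1 called member of 7 tested limb bud and tail bud genes, of which 4 had a negative fold change (list median -0.32). Among all genes tested, 0.693% were called.

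OSR2, a zinc finger factor of limb and palate mesenchyme, had 239, 38.9 and 327 in the saddle, against 19.9, 0 and 69.0 in the posterior back. Saddle library 8 lay below posterior library 11, so the groups overlapped, and the call rests on the difference within each number (log2 fold change 3.69, SE 0.62, adjusted p = 0.0141). ZEB2, a zinc finger factor of neural crest and of epithelial-mesenchymal transition, had 1372, 2042 and 5325 in the saddle, against 517, 324 and 543 in the posterior back. Its groups did not overlap, and saddle library 11 was the highest (log2 fold change 2.45, SE 0.42, adjusted p = 0.0141). OSR2 and ZEB2 each stayed called in 2 of the 6 fits that leave out a library. GTDC1, the tested gene next to ZEB2 on chromosome 7, was also higher (log2 fold change 1.22).

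Among transporters, enzymes and secreted proteins the saddle was also higher for several genes. SLC18A2, the vesicular transporter that loads monoamines into vesicles, had 137, 189 and 169 in the saddle, against 0, 2.35 and 15.3 in the posterior back. The ratio of the means, 28, rests on a posterior level of few reads (log2 fold change 5.44, SE 0.91, adjusted p = 0.0127). SLC6A2, the noradrenaline transporter of the cell surface, had 348, 153 and 146 in the saddle, against 16.6, 11 and 4.38 in the posterior back. The groups of both genes were separate. SLC6A2 (log2 fold change 4.26, SE 0.85, adjusted p = 0.0356) stayed called in none of the 6 fits that leave out a library, and SLC18A2 in 2.

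B3GALT2, a galactosyltransferase of the Golgi, had 342, 353 and 211 in the saddle, against 9.13, 12.5 and 72.3 in the posterior back. Number 11 showed the smallest gap, from the lowest saddle and the highest posterior library (log2 fold change 3.77, SE 0.59, adjusted p = 0.00964), and B3GALT2 stayed called in 4 of the 6 fits. TP53I11, a gene induced by p53, had 171, 195 and 137 in the saddle, against 32.4, 25.1 and 25.2 in the posterior back. This was among the tightest differences, 6.09-fold by the means (log2 fold change 2.56, SE 0.32, adjusted p = 0.0023), and its largest adjusted p without 1 library was 0.0265.

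HTRA1, a secreted serine protease, had 3726, 2435 and 11075 in the saddle, against 648, 640.4 and 1003 in the posterior back. TGM2, a protein-crosslinking enzyme induced by retinoic acid, had 495, 233 and 2039 in the saddle, against 96.3, 60.4 and 327 in the posterior back. PHEX, a membrane endopeptidase of bone and tooth, had 39.4, 91.0 and 889 in the saddle, against 9.96, 2.35 and 49.3 in the posterior back. In all 3 of these genes saddle library 11 was by far the highest. Number 11 was also the highest posterior library. The log2 differences within a number were 2.52, 1.93 and 3.46 for HTRA1 and 2.35, 1.93 and 2.63 for TGM2. For PHEX they were 1.88, 4.78 and 4.15. The log2 fold changes were 2.64 (SE 0.45), 2.31 (SE 0.50) and 3.60 (SE 0.70) for HTRA1, TGM2 and PHEX, with adjusted p of 0.0141, 0.0483 and 0.0297. HTRA1 and PHEX each stayed called in 1 of the 6 fits that leave out a library. Groups overlapped for TGM2 and PHEX. TGM2 stayed called in none of those fits. It was the 1 called member of 12 tested genes of the retinoic acid pathway, where 0.693% of all genes tested were called.

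The 3 genes furthest lower in the saddle were HOXD11, GSZG0012623, an entry without a symbol beside it, and HOXA11. HOXA11 had 77.7, 34.5 and 3.63 in the saddle, against 2346, 2093 and 2338 in the posterior back. The posterior libraries agreed closely, while the saddle libraries held a low level that differed between numbers (58.5-fold lower by the means, log2 fold change -6.59, SE 0.74, adjusted p = 0.00109). HOXA11 lies on chromosome 2 at 52641989 to 52644396 on the minus strand. HOXD11, on chromosome 7 at 17038300 to 17039721 on the plus strand, had 0, 15 and 0 in the saddle, against 676, 777 and 148 in the posterior back. Its reads in the saddle all came from library 8 (17 reads), the saddle library with the highest muscle marker sum, and whether the 2 are linked was not tested. The log2 fold change of HOXD11 was -7.41 (SE 0.98, adjusted p = 0.00286).

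DESeq2 did not call HOXD11 (adjusted p = 0.164), and over all alternatives its adjusted p ran from 0.00018 to 0.164, always with the same sign. The nearest tested gene on its 5′ side, GSZG0012623, has no symbol in the sources used here and lies on chromosome 7 at 17031441 to 17032219. It had 0, 13.3 and 0 in the saddle, against 590.0, 687 and 73.4 in the posterior back (log2 fold change -7.01, SE 0.94, adjusted p = 0.00286). Both genes were lowest at number 11 among posterior libraries.

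No other HOX gene was called between saddle and posterior back, of 19 tested. The 7 genes of paralog groups 1 to 5 had a median log2 fold change of 0.57 and no call by limma or edgeR, with 3 higher at an unadjusted p below 0.05 and 1 called by DESeq2. The 5 genes of groups 6 to 8 had a median of 1.06, no call by limma or edgeR, 3 higher at an unadjusted p below 0.05 and 1 called by DESeq2. In groups 9 to 13 the median was -1.44 over 7 genes, 2 of them called lower by limma and 1 called by DESeq2. These 7 did not share a direction, with 3 positive and 4 negative fold changes and 1 higher at an unadjusted p below 0.05. HOXB9 had 137, 97.2 and 59.9 in the saddle, against 34.9, 36.8 and 23.0 in the posterior back (log2 fold change 1.55, adjusted p = 0.377). HOXA9 had 1182, 737 and 819, against 501, 534 and 667 (log2 fold change 0.67, adjusted p = 0.725). At an unadjusted p below 0.05, 12.2% of all genes passed, 6.2% higher and 6.03% lower. Of all genes tested, limma called 0.693%, edgeR 0.478% and DESeq2 2.73%.

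The levels of these uncalled HOX genes show which were present on both sides of the boundary. HOXA7 had 735, 651 and 554 in the saddle, against 385, 328 and 231 in the posterior back, without overlap (log2 fold change 1.06, adjusted p = 0.103). HOXC9 had 725, 701 and 664 in the saddle, against 395, 380.2 and 311 in the posterior back. Its groups were separate too, but the spread over all 7 locations, which the fit pools, was wide for HOXC9 (log2 fold change 0.95, SE 0.67, adjusted p = 0.616). HOXD10, one paralog group before HOXD11 in the same cluster, had 399, 155 and 42.7 in the saddle, against 386, 503 and 280.3 in the posterior back. Its groups overlapped (log2 fold change -1.44, SE 0.92, adjusted p = 0.571). HOXD13 was low in both, with 0, 17.7 and 0 in the saddle, against 11.6, 10.2 and 3.28 in the posterior back.

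**Figure D2:**
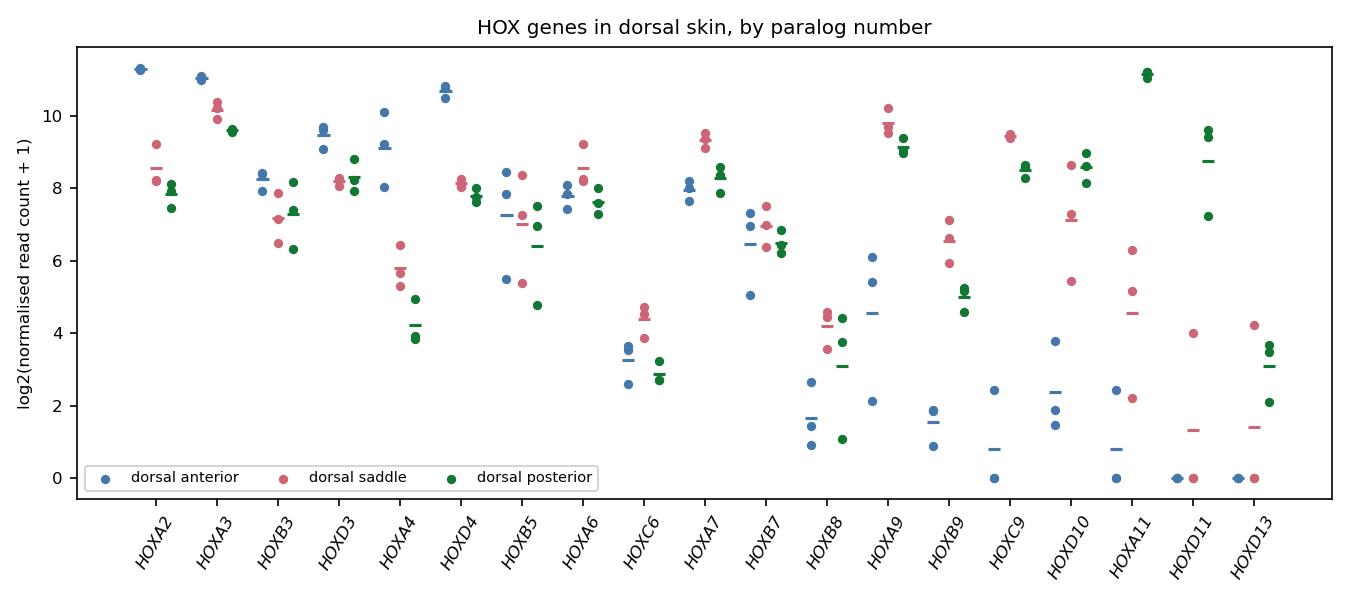
Level of the 19 tested HOX genes as log2(normalised read count + 1) in dorsal anterior (blue), saddle (pink) and posterior (green) skin, 1 point per library and a bar at the mean, ordered by paralog number. HOXA11 and HOXD11 step between saddle and posterior skin, and HOXC9, HOXA9 and HOXB9 between anterior and saddle skin.

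The other named genes lower in the saddle had smaller changes, and with the exception of ERG each of them stayed called in at most 2 of the 6 fits that leave out a library. RFX4, a transcription factor of the neural tube, had 0, 1.77 and 1.82 in the saddle, against 34.0, 118 and 46.0 in the posterior back. The saddle was near 0 throughout, with 4 reads in all (log2 fold change -4.87, SE 1.02, adjusted p = 0.0421). TMEM196, a membrane protein gene, had 24.4, 41.5 and 5.45 in the saddle, against 151, 135 and 131 in the posterior back, without overlap (log2 fold change -2.87, SE 0.61, adjusted p = 0.0422). CDH23, a cadherin of the tip links of sensory hair cells, had 41.8, 61.0 and 71.7 in the saddle, against 181, 129 and 552 in the posterior back, again without overlap (log2 fold change -2.03, SE 0.35, adjusted p = 0.0141).

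ERG, an ETS factor of endothelium and cartilage, had 390, 246 and 263 in the saddle, against 693, 561 and 618 in the posterior back. The 2 groups were separate and the difference was precise (log2 fold change -1.08, SE 0.15, adjusted p = 0.00317). ERG was the 1 called member of 13 tested endothelial genes, where 0.693% of all genes tested were called. Only 2 of the 13 had a negative fold change, ERG and LMO2, and the list median was 0.88. CDH5, the cadherin of endothelial junctions, had 1139, 1269 and 341 in the saddle, against 878, 166 and 394 in the posterior back, with overlap.

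Further called genes were RTN1, a reticulon of the endoplasmic reticulum in neuroendocrine cells, and SCUBE3, a secreted protein that modulates signalling. RTN1 had 202, 70.7 and 24.5 in the saddle, against 503, 216 and 128 in the posterior back, where the groups overlapped and each number showed the same direction (log2 fold change -1.75, adjusted p = 0.043). SCUBE3 had 223, 144 and 79.9 in the saddle, against 445, 478 and 465 in the posterior back, without overlap (log2 fold change -1.75, adjusted p = 0.0497). SLC29A4, a plasma membrane monoamine transporter, had 87.0, 63.6 and 72.7 in the saddle, against 254, 149.7 and 193 in the posterior back, also separate (log2 fold change -1.38, adjusted p = 0.0294). The remaining 4 named genes were GRTP1 (log2 fold change -1.51), the cytoskeletal linker GAS2 (-1.26), LINGO1, a partner of the Nogo receptor (-1.23), and PYGO1, a cofactor of beta-catenin (-1.13). The summed level of muscle markers was also lower in the saddle, and its part in these differences was not tested.

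Pigment genes were of interest because the saddle and the posterior back were sampled as parts of a colour pattern. SLC24A5, a cation exchanger of the melanosome, had 1228, 1353 and 1305 in the saddle, against 700.4, 606 and 609 in the posterior back. It was 2.03-fold higher by the means with little spread (log2 fold change 1.02, SE 0.13, adjusted p = 0.0023). It was the 1 called gene of 24 tested melanocyte and melanin genes, where 0.693% of all genes tested were called. In all, 20 of the 24 had a positive fold change, the median was 0.70, and 11 did not overlap, against 13.1% of all genes. At an unadjusted p below 0.05, 5 were higher and 0 lower, against 6.2% and 6.03% of all genes. The summed level of the list of 25 genes was 13517, 16540 and 19816 in the saddle, against 10288, 9515 and 11810 in the posterior back, where all 3 saddle libraries were higher. These levels were not particular to the saddle. In the anterior back the sum was 12453.5, 18047 and 19058, overlapping the saddle. SLC24A5 had 1361, 1574 and 1472 there and was not called against the saddle (log2 fold change, anterior over saddle, 0.18, adjusted p = 0.769).

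KIT, the receptor on which melanoblasts depend, had 1028, 1674 and 1594 in the saddle, against 510.4, 651 and 379 in the posterior back. The groups were separate at 2.79-fold by the means, but KIT was not called (log2 fold change 1.48, SE 0.45, adjusted p = 0.165). DESeq2 called it (adjusted p = 0.035), and over all alternatives the adjusted p ran from 0.035 to 0.775. In the anterior back KIT had 989, 2553 and 2179, overlapping the saddle (log2 fold change, anterior over saddle, 0.33, adjusted p = 0.935). TYR, the enzyme that starts melanin synthesis, had 1503, 1639 and 2676 in the saddle, against 985, 780 and 447 in the posterior back. It was likewise separate and not called, with an SE pooled over all locations, in some of which TYR was near 0 (log2 fold change 1.42, SE 1.44, adjusted p = 0.748).

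MITF, the master transcription factor of melanocytes, had 415, 407 and 537 in the saddle, against 349, 285 and 301 in the posterior back, separate and not called (log2 fold change 0.53, adjusted p = 0.334). SLC45A2, a melanosomal transporter, had 157, 156 and 216 in the saddle, against 108, 76.0 and 70.1 in the posterior back, again separate and not called (log2 fold change 1.06, adjusted p = 0.795). EDNRB, an endothelin receptor of neural crest cells, had 523, 648 and 460.4 in the saddle, against 664, 343 and 1509 in the posterior back, with overlap (log2 fold change -0.38, adjusted p = 0.792). MC1R, EDN3 and EDNRB2 are not analysed here.

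Of 14 secreted regulators of melanocytes tested, 0 were called by limma, edgeR or DESeq2, and 0 passed at an unadjusted p below 0.05. Over all genes tested, limma called 0.693%, edgeR 0.478% and DESeq2 2.73%, and 12.2% passed at an unadjusted p below 0.05. With shares this low, 0 of 14 cannot show that the list was unchanged. Log2 fold changes in the list ran from -1.30 to 1.49. ASIP, the agouti signal that turns melanocytes to yellow pigment, had 25.5, 26.5 and 40.0 in the saddle, against 33.2, 44.7 and 5.47 in the posterior back. These overlapped, and the sign changed when number 11 was left out (log2 fold change 0.52, SE 0.75, adjusted p = 0.839). KITLG, the ligand of KIT, had 345, 533 and 578 in the saddle, against 295, 391 and 489 in the posterior back, with overlap (log2 fold change 0.30, SE 0.20, adjusted p = 0.59).

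**Figure D3:**
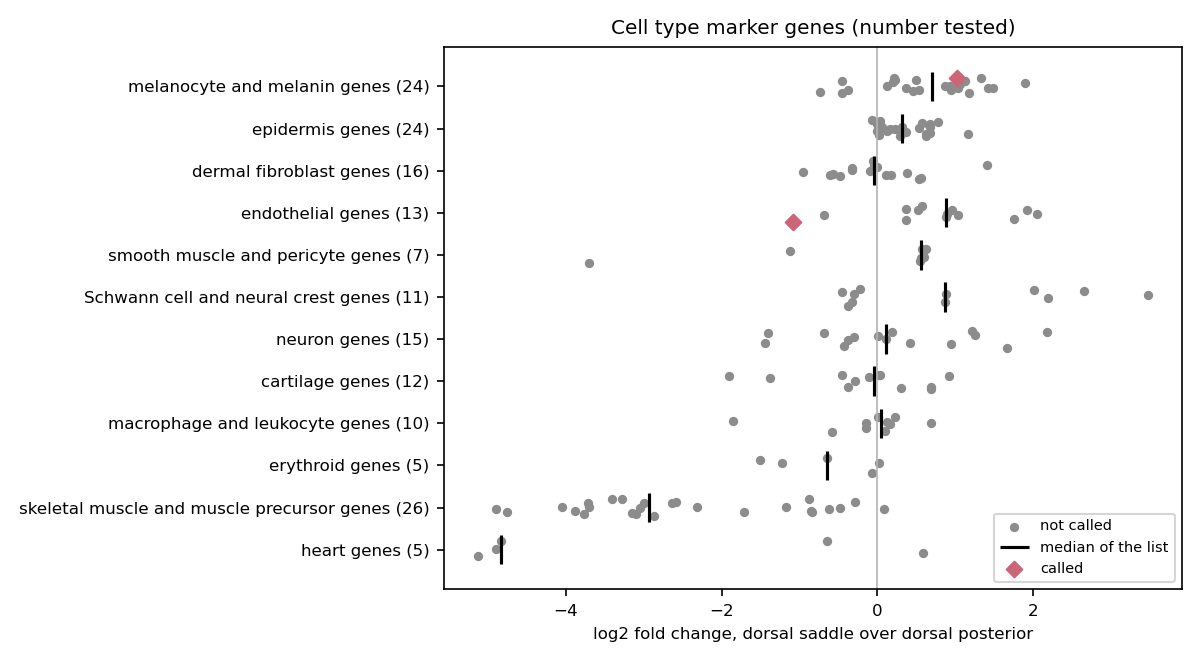
Log2 fold change, saddle over posterior, of the tested genes of 12 cell type marker lists, 1 point per gene, with a black bar at the list median and diamonds for called genes. Melanocyte genes lie mostly right of 0 (median 0.70) and muscle genes mostly left (median -2.93).

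The sums of skeletal muscle, epidermis and dermal fibroblast markers were separate between saddle and posterior back, while none of their genes was called by limma. Heart sums were separate too, and Schwann cell and neural crest sums narrowly so (highest saddle 8946, lowest posterior 9011). In the anterior back the muscle sum was 8735, 4874 and 548, which overlapped both the saddle and the posterior range. Epidermal and dermal sums of the anterior back overlapped those of the saddle. Sums of neuron, cartilage and leukocyte markers overlapped. Smooth muscle sums overlapped too, though the saddle was higher within each number. Of 26 tested genes of skeletal muscle and its precursors, 0 were called by limma, edgeR or DESeq2, 12 were lower at an unadjusted p below 0.05, 25 had a negative fold change, and the median was -2.93. In 16 of them the groups did not overlap. Over all genes tested, 6.03% were lower at an unadjusted p below 0.05 and 13.1% did not overlap. ACTC1, an actin of heart and embryonic muscle, had 25.5, 785 and 30.9 in the saddle, against 2058, 2566 and 3311 in the posterior back. MYOD1, the factor that commits cells to muscle, had 0, 53.9 and 3.63 in the saddle, against 236, 123 and 170 in the posterior back. Saddle library 8 lay nearest to the posterior libraries in both. Heart genes, which share ACTC1 with that list, had a median of -4.84 over 5 tested. The heart factor TBX20 had 0, 168 and 0 in the saddle, against 0, 1.57 and 18.6 in the posterior back.

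Of 24 epidermis genes, 0 were called by limma or edgeR and 2 by DESeq2, 4 were higher at an unadjusted p below 0.05, 21 had a positive fold change, and the median was 0.31. Their sum was 47907, 59276 and 49694 in the saddle, against 36901, 43838 and 40071 in the posterior back. Of 16 dermal fibroblast genes, 0 were called by limma or edgeR and 3 by DESeq2, with 4 at an unadjusted p below 0.05 and a median of -0.05. The sums of the dermal list were 206582, 215272 and 185273 in the saddle, against 224058, 222956 and 275528 in the posterior back. The saddle thus had more of the epidermal sum and less of the dermal sum in every number. The part of this in other results was not tested. Among 11 genes of Schwann cells and neural crest, 0 were called by limma or edgeR and 1 by DESeq2, with 4 higher at an unadjusted p below 0.05, 5 negative fold changes and a median of 0.87. Their sum went the other way from that median, with 8014, 8946 and 8416 in the saddle, against 9017, 12002 and 9011 in the posterior back. For comparison, 12.2% of all genes tested had an unadjusted p below 0.05, 6.2% higher and 6.03% lower, and DESeq2 called 2.73%.

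The lists of WNT, BMP and TGF-beta, FGF, hedgehog, Notch and feather placode genes gave no call by limma or edgeR. The lists do not hold every gene of a pathway. PYGO1, a cofactor of beta-catenin, and NXN, a redox protein of the WNT pathway, are outside the WNT list and were called lower by limma. VANGL1, of planar cell polarity, is outside it too and was called higher. Of 41 WNT pathway genes, DESeq2 called 1, and 4 were higher and 6 lower at an unadjusted p below 0.05 (median -0.10). Of 34 BMP and TGF-beta genes, DESeq2 called 4, and 3 were higher and 7 lower (median -0.19). Of 27 FGF genes, DESeq2 called 3, and 2 were higher and 1 lower (median 0.02). Over all genes DESeq2 called 2.73%, and 6.2% were higher and 6.03% lower at an unadjusted p below 0.05. Hedgehog genes numbered 10, with 1 called by DESeq2 and 1 lower at an unadjusted p below 0.05. Notch genes numbered 12, with 0 called by DESeq2 and 1 higher at an unadjusted p below 0.05. Of 35 feather placode and dermal condensation genes, DESeq2 called 0, and 1 was higher and 2 lower at an unadjusted p below 0.05 (median -0.09).

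The next question was whether the step between saddle and posterior back resembles that between anterior back and saddle. The difference of the 2 steps, (saddle minus posterior) minus (anterior minus saddle), was called for 57 genes, 0.407% of those tested, 0.278% positive and 0.129% negative. The anterior step itself was called for 1.83% of genes. The saddle libraries enter both steps, so a gene high or low in the saddle alone moves the difference by both. Apart from uncalled HOX and pigment genes, the named genes were chosen for their step between saddle and posterior back, 1 term of the difference. Their adjusted p for it are not free of that choice. SLC6A2 had 17.5, 2.64 and 19.5 in the anterior back, near its posterior level (difference 8.42, SE 1.47, adjusted p = 0.0224).

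TP53I11 (anterior 45.5, 39.7 and 29.6), TBXT (anterior 10.5, 28.2 and 14.4) and ZEB2 (anterior 277, 684 and 921) were also lower in the anterior back than in the saddle. Their differences of steps were 4.67, 6.30 and 4.59, with adjusted p of 0.00123, 0.0104 and 0.012. TGM2 had a difference of 4.27 (adjusted p = 0.043). RFX4 ran the other way, with 14, 77.6 and 88.9 in the anterior back and a saddle near 0 between 2 higher neighbours (difference -9.45, adjusted p = 0.0301). ERG, with 401, 398 and 493 in the anterior back, had its lowest dorsal mean in the saddle as well (difference -1.62, adjusted p = 0.0104).

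Other genes were not called between anterior back and saddle. SLC18A2 had 877, 546 and 290.3 in the anterior back, above its saddle level in each library, and TBX18 had 66.5, 97.0 and 130 there. Neither was called by limma (log2 fold change, anterior over saddle, 1.66 and 0.61). EMX2 had 445, 628 and 399.5 in the anterior back, overlapping the saddle (log2 fold change -0.12).

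HOX genes were also called between anterior back and saddle. HOXC9 had 0, 4.41 and 0 in the anterior back, against the saddle levels given above (log2 fold change, anterior over saddle, -8.63, adjusted p = 1.24e-05). Its difference of steps was 9.58 (SE 1.16, adjusted p = 0.00142). HOXB9, HOXA9 and HOXA7 had differences of 6.57, 5.93 and 2.44, with adjusted p of 0.0289, 0.0293 and 0.0372. The anterior step was also called for HOXD10, lower in the anterior back (log2 fold change, anterior over saddle, -4.76), and for HOXA4, HOXA2, HOXD4 and HOXA3, higher there (3.33, 2.73, 2.56 and 0.86). The difference of steps was not called for any of these 5. For HOXA11 and HOXD11 the difference of steps was -2.84 and -6.07 and was not called, with adjusted p of 0.541 and 0.173. HOXA11 was also lower in the anterior back than in the saddle (log2 fold change -3.74, adjusted p = 0.0134), at 4.38, 0 and 0.

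The belly was used to ask whether the dorsal step has a counterpart between ventral-most and ventral posterior skin, 2 locations that share no library with it. The difference of the 2 steps, (saddle minus posterior) minus (ventral-most minus ventral posterior), was called for 93 genes, 0.664% of those tested, 57 positive (0.407%) and 36 negative (0.257%). The ventral step itself was called for 2.35% of genes. The named genes were chosen for their dorsal step, which is one term of this difference. HOXA11 showed the same direction on both sides. It had 0, 1.82 and 0 in ventral-most skin, against 1282, 1101 and 1403 in ventral posterior skin (log2 fold change -9.80, SE 0.74, adjusted p = 6.14e-06). The difference from the dorsal step, 3.21 (SE 1.05), was not called (adjusted p = 0.198).

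HOXD11 had a step on the back and none on the belly that reads could show. It had 2, 0 and 0 in ventral-most skin, against 0, 0 and 4.10 in ventral posterior skin, at or near 0 in both (difference of steps -7.15, SE 1.39, adjusted p = 0.0242). GSZG0012623 was low on the belly as well, with 0, 0 and 0 against 3.14, 1.37 and 5.13, and its difference of steps of -5.04 was not called (adjusted p = 0.105).

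EMX2 ran in opposite directions on back and belly. It had 36.9, 28.1 and 27.4 in ventral-most skin, against 235, 93.1 and 507 in ventral posterior skin (log2 fold change -2.83, SE 0.62, adjusted p = 0.0248). The difference of steps was 6.89 (SE 0.87, adjusted p = 0.00208). SLC18A2 had 5.99, 5.45 and 0 in ventral-most skin, against 29.3, 23.3 and 21.5 in ventral posterior skin, a step of -2.84 that was not called (adjusted p = 0.116). Its difference from the dorsal step was 8.28 (SE 1.28, adjusted p = 0.00622).

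RTN1 was higher in ventral-most skin, with 408, 333 and 229, against 147, 136 and 47.2 in ventral posterior skin (log2 fold change 1.67, adjusted p = 0.0279). Its dorsal step was the reverse (difference -3.42, SE 0.53, adjusted p = 0.00622). TBX18 was higher in ventral-most skin too, with 148, 229 and 202, against 20.9, 50.6 and 119 in ventral posterior skin. Here both sides had the same direction (ventral log2 fold change 1.89, adjusted p = 0.0166), and the difference of steps of 1.43 was not called (adjusted p = 0.277). SLC24A5 had a ventral log2 fold change of 0.20 (adjusted p = 0.482), and its difference of steps of 0.82 (SE 0.18) came to an adjusted p of 0.0542.

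**Figure D4:**
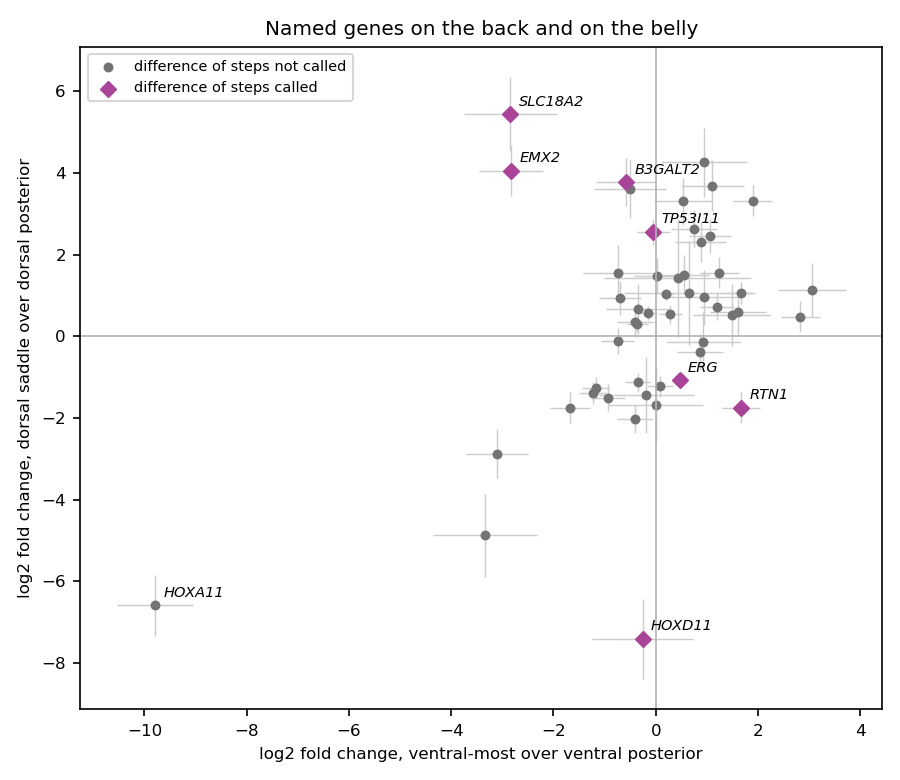
Log2 fold change of 50 named genes, saddle over posterior on the back (vertical) against ventral-most over ventral posterior on the belly (horizontal), with bars of 1 SE. Purple diamonds mark genes whose steps differed (adjusted p below 0.05), such as EMX2 and HOXD11, while HOXA11 lies low on both axes.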

How the data were processed

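RNA of embryonic skin was amplified with SMART-Seq v4 and made into Nextera XT libraries, per the labels' protocols, without molecular identifiers. Tools in the submitters' processing notes are DESeq2, STAR 2.4.0, SAMtools, Picard and FastQC, without roles. No genome build, annotation or counting program is given in the sources used here. Coordinates are as the table gives them. The deposited unit is a signal, read counts of genes divided by a size factor per library by the authors, per the labels and the column headers. Division by each column's smallest step gave whole reads for 100% of values, within 0.01 reads, and these were used for depth and for edgeR and DESeq2. For 2 ventral libraries, ventral-most 3 and flank 8, the step was within 1% of 1 (0.998 and 1.008). Their values were whole multiples of that step rather than whole numbers, and were divided by it like the others. Counting does not state strand, so antisense overlap cannot be resolved.

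Symbols came from RefSeq (bTaeGut7.mat, names only) by Entrez identifier, or from the deposited names, for 8546 of 18202 genes. The 14005 genes (7971 with symbol) that reached 10 in 3 or more libraries were tested with limma 3.58.1 in R 4.3.3 on log2(value + 1), with location and number in a single fit over 21 libraries, a trend and robust moderation. The added 1 understates changes of low genes. Every adjusted p is limma's unless edgeR 4.0.16 or DESeq2 1.42.0 is named, and SE is the fit's. p-values measure the spread between these libraries, whose independence the labels do not give. Libraries of the same number varied together. Deviations from the location means correlated at 0.52, 0.44 and 0.46 between same-numbered saddle and posterior libraries (for numbers 3, 8 and 11). Over all 63 same-numbered pairs the correlation ran from 0.27 to 0.53. Between saddle and posterior libraries of different numbers it was -0.28 to -0.17. Deviations cancel out within a location, so positive same-number values force these to be negative, and they are no separate evidence of pairing.

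Named genes were the 12 most changed called genes each way that had a symbol, 1 sign in all 3 numbers and a mean log2(value + 1) of 5 or more in the higher location, up to 4 called members of each list, all tested HOX genes, and a set of pigment genes. Some genes that fit this rule are not reported here. Members and lists were chosen with earlier results of these data known. The 13 mitochondrial-encoded genes are all listed at 0 and were not tested. Alternatives changed the block, the libraries, the pseudocount, the filter, the tool, the scaling or the replicates.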

Additional observations from a re-analysis of the deposited data

Results flagged for a closer look

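For 7 named genes the step on the back, saddle minus posterior, differed from the step on the belly, ventral-most minus ventral posterior, by a test of the difference itself (limma, adjusted over 14005 genes). Over all genes tested this difference was called for 0.664%. All 7 were named for a called dorsal step, which is 1 term of the difference, so their number cannot be read against that share. The log2 difference of steps was 8.28 for SLC18A2, 6.89 for EMX2, 4.35 for B3GALT2 and 2.60 for TP53I11, all positive. It was -7.15 for HOXD11, -3.42 for RTN1 and -1.55 for ERG. The adjusted p were 0.00622, 0.00208, 0.0234, 0.0129, 0.0242, 0.00622 and 0.00221 in that order. B3GALT2 had 162, 63.5 and 69.0 in ventral-most skin, against 152, 86.2 and 182 in ventral posterior skin, so it overlapped on the belly. TP53I11 had 57.9, 69.0 and 65.5 in ventral-most skin, against 73.2, 93.1 and 42.1 in ventral posterior skin, again with overlap. ERG had 1014, 931 and 862 in ventral-most skin, against 729, 621 and 681 in ventral posterior skin, where ventral-most skin was higher in every number (log2 fold change 0.47, adjusted p = 0.112). No location had 4 or more libraries, so single libraries were not examined for outlying values.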

How the results depend on the processing

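Under the alternatives the fold changes of the 51 named genes kept their sign, except when libraries were left out. The count of 97 calls was 22 without the replicate block (16 higher, 6 lower), 29 with the compared libraries alone (13 higher, 16 lower), and 383 with DESeq2 (201 higher, 182 lower, 95 shared with the 97; 544 genes have no adjusted p there). It was 67 with edgeR (65 shared, 43 higher and 24 lower) and 65 without a filter on low values (37 higher and 28 lower). A pseudocount of 5, a filter of at least 50 and scaling to library totals gave 97, 100 and 82. Leaving out a number or a library gave 0 to 59 calls, 0 to 29 higher and 0 to 30 lower, with fewer libraries in each fit. The 93 genes whose dorsal and ventral steps differed were 20 without the block, 401 with DESeq2 and 0 to 32 without a number. The 57 genes whose 2 dorsal steps differed were 20 without the block, 246 with DESeq2 and 0 to 15 without a number. With libraries left out the log2 fold change ran from -0.43 to 0.33 for HOXB3, from -0.41 to 0.21 for HOXD3, from -1.03 to 0.29 for EDNRB and from -0.55 to 1.15 for ASIP. The cause of the other differences between alternatives was not tested. Depth limits genes with few reads in a location, such as HOXD11 and RFX4 in the saddle and SLC18A2 in the posterior back, whose fold changes depend on the pseudocount.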

Other observations

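The following called genes have no place in the lists and were chosen after their values were seen. Some of them act on the actin cytoskeleton. WASF3, an activator of actin branching, had 1511, 1635 and 1431 in the saddle, against 403, 526 and 432 in the posterior back (log2 fold change 1.75, SE 0.28, adjusted p = 0.00965). DOCK11, which activates the small GTPase CDC42, had 247, 531 and 531 in the saddle, against 99.6, 225 and 222 in the posterior back, higher in each number (log2 fold change 1.26, adjusted p = 0.0141). FGD6, a guanine nucleotide exchange factor, and IQGAP2, a scaffold, had log2 fold changes of 1.05 and 0.81. VANGL1, of planar cell polarity, was higher as well (log2 fold change 1.22, adjusted p = 0.00965). DBN1, an actin-binding protein, was lower (log2 fold change -0.59).

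Genes that handle monoamines were called in both directions. SLC18A2 and SLC6A2 were higher in the saddle, as described above, and SLC29A4 was lower. TH, the enzyme that starts catecholamine synthesis, had 16.2, 7.95 and 10.9 in the saddle, against 0, 18.8 and 0 in the posterior back, and was not called (adjusted p = 0.448).

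ISM1, a secreted antagonist of Nodal signalling, had 2785, 2646 and 1900 in the saddle, against 621, 413 and 821 in the posterior back (log2 fold change 2.02, SE 0.32, adjusted p = 0.00964). SIX2, a homeobox factor of kidney progenitors, had 245, 238 and 292 in the saddle, against 87.1, 75.3 and 55.8 in the posterior back (log2 fold change 1.83, SE 0.35, adjusted p = 0.0294). Groups of both genes were separate. SIX2 was not particular to the saddle. It had 3260, 1819 and 2005 in ventral-most skin, against 113, 200 and 230 in ventral posterior skin (log2 fold change 3.71, adjusted p = 3.63e-05). The difference of steps for SIX2, -1.88, was not called (adjusted p = 0.109). PAPPA, a protease that frees insulin-like growth factors, was higher in the saddle (log2 fold change 1.12), and its step differed from that on the belly (difference 2.09, adjusted p = 0.00221). NXN, a redox protein of the WNT pathway, is the symbol of 2 entries, both called lower (log2 fold change -0.97 and -0.87). Whether reads were split between them cannot be told from the table, so its values are uncertain.

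Called genes lay next to each other among tested genes in 4 pairs, and each pair had 1 direction. Here next to each other means consecutive among tested genes, at any distance. Whether 4 pairs are more than unlinked genes would give was not tested. The pairs included HOXD11 with GSZG0012623, ZEB2 with GTDC1, and GSZG0000299 with GSZG0000300. ZEB2 and GTDC1 have separate symbols and lie 96896 bases apart. Whether an entry without a symbol is a transcript separate from its neighbour cannot be told from the deposited values.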
